A study of Mus musculus with 16 samples.

Results

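A set of 34 genes of cholesterol handling was followed through the liver transcriptome of mice kept in 4 atmospheres. The set was chosen by gene name and known function, and all 34 of 34 were found among the 55487 genes of the expression table. It holds 18 enzymes of cholesterol synthesis and 16 genes of regulation, uptake, transport inside the cell, efflux and esterification. The mice were wild type C57BL/6J animals, 12 weeks old, exposed to room air (RA), sustained hypoxia (SH), intermittent hypoxia (IH) or overlap hypoxia (OH), with 4 whole-liver libraries in each of 4 groups. The labels give no transgene, deletion or drug in any group. The sources used here do not state oxygen levels, the length of exposure, sex, feeding or the hour of collection. The labels give each library a number and a code without saying that a code is an animal, so the p-values below measure the spread between libraries, which may in part be technical.

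Hepatocytes make cholesterol from acetyl-CoA through mevalonate, squalene and lanosterol, and several of the later steps use molecular oxygen. When sterols in the endoplasmic reticulum run low, SCAP carries the transcription factor SREBP2, the product of Srebf2, to the Golgi, where it is cut and released to switch on the synthesis genes. The INSIG proteins hold SCAP back when sterols are plentiful. The liver X receptors, the products of Nr1h3 and Nr1h2, sense oxysterols and switch on export genes, among them the paired transporters ABCG5 and ABCG8, which move sterols into bile.

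Expression is given as CPM, the RSEM expected count per 1000000 counts of a library total scaled with the TMM method. Library totals ran from 10940253 expected counts (overlap replicate 3) to 64789587 (sustained replicate 2). Ribosomal RNA took 18.5% to 34.8% of the counts in the intermittent libraries and at most 16.8% in any other library, so the intermittent exposure and a high ribosomal share cannot be told apart. The share was 5.22% ± 3.71 (SD, n = 4) in room air, 2.16% ± 0.698 under sustained and 9.59% ± 5.82 under overlap hypoxia. Mitochondrial genome transcripts also took more of the intermittent libraries, 6.23% to 11.7%. They took 1.18% to 2.75% in room air, 1.43% to 1.73% under sustained and 2.54% to 7.17% under overlap hypoxia. No fit took this share as a covariate. The label says liver although the extraction text speaks of retina. The hepatocyte gene Alb stood at 36132 to 60643 CPM, while the photoreceptor gene Rcvrn was at 0 in every library. A gene was called changed when its adjusted p was under 0.05 in edgeR's quasi-likelihood test, with Benjamini-Hochberg adjustment over 14553 genes. All 34 members passed the filter on low counts. By sequence, 7 members share more than 5% of their 50-base words with other genes, so their reads may be split or merged. These are Acat2 (39.1%, mainly Acat3), Fdft1 (26.5%), Fdps (26.2%), Idi1 (25.3%), Hmgcs1 (11.6%), Scap (9.96%) and Tm7sf2 (9.87%). The other 27 share at most 4.39%.

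The synthesis genes are shown first by the DNA just before their starts, since SREBP2 and its partner NF-Y are known to act there. RefSeq windows of 250 bases before the start (GRCm38.p6) were found for 15 of the 18 enzymes and for 12 of the other 16 members. The NF-Y box, CCAAT on either strand, was present for 14 of the 15 enzymes, all but Acat2, and for 7 of the 12 others. Of all 27025 genes with a window, 37.5% held one. The GC box GGGCGG, a site of SP1-type factors, was present for 14 of the 15 enzymes, all but Pmvk, and for 35.4% of all genes. The E-box CACGTG was found for 3 of the 15 enzymes (Hsd17b7, Sc5d and Dhcr7) and 6.86% of all genes. The sterol regulatory element TCACNCCAC was found only for Hmgcs1, against 1.23% of all genes. A match is a description of letters, and no match says only that these letters are not in the window. The 4 motifs were searched on both strands, none contains the letters of another, and a gene with several starts was counted once. The windows below were picked for the number of NF-Y boxes they hold, from 5 to 0, with NF-Y boxes on either strand in capitals and, in Hmgcs1, also the sterol regulatory element at position −137 from the start. They are Hmgcs1 (chr13:119690101-119690350, plus strand), Mvk (chr5:114444019-114444268, plus strand, 5 boxes), Mvd (chr8:122443423-122443672, minus strand) and Acat2 (chr17:12960726-12960975, minus strand, no box).
Hmgcs1: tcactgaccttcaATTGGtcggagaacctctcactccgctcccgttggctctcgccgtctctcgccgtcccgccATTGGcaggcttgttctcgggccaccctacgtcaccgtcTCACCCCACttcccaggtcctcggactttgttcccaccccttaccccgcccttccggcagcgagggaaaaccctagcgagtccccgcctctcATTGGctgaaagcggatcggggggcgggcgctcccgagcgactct
Mvk: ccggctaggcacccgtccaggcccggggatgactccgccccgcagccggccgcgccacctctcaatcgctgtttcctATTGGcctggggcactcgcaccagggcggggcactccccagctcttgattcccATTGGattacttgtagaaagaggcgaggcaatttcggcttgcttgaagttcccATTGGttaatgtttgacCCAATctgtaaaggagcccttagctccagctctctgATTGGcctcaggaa
Mvd: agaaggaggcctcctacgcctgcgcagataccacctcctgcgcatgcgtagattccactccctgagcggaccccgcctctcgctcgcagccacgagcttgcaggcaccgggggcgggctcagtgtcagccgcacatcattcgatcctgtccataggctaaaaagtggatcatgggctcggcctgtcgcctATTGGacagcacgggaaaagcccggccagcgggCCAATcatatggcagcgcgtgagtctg
Acat2: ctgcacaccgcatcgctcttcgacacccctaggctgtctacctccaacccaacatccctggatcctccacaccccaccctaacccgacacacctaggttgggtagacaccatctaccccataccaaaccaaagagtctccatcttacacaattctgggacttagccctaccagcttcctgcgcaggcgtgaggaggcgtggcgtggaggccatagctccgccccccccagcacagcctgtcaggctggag

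Under sustained hypoxia, transcripts of the synthesis enzymes lay, at the median, above room air in 3 of the 4 libraries, and no single enzyme passed the test. Of the 18 enzymes, 0 were called in either direction, beside 0.0481% of all genes. By edgeR, 7 of the 18 had an unadjusted p under 0.05, beside 1672 of the 14553 genes tested. DESeq2 and limma-voom also called 0, beside 1.57% and 1.7% of all genes, and the lowest adjusted p by edgeR was 0.28 (Mvk). The log2 fold change was above 0 for 17 of the 18, with a median of 0.71 and a range from −0.03 (Hsd17b7) to 1.28 (Fdps). The median over all genes tested was −0.01. Tm7sf2 and Ebp were the 2 enzymes whose sustained libraries all lay above all room air libraries, a pattern held by 4.6% of all genes.

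The library medians show where the spread lay. Across the 18 enzymes, the median log2 ratio to the room air mean was 1.17, 0.87, 0.61 and −0.09 in sustained replicates 1 to 4. Replicate 4 was the lowest sustained library for 18 of 18 enzymes, as it was for 25.1% of all genes tested. The room air libraries stood at 0.24, −0.09, −0.04 and −0.10. In the intermittent group the values were −0.34, −0.11, −0.07 and 0.48. In the overlap group they were −0.56, 0.95, −0.35 and −0.25, so replicate 2 stood with the sustained libraries and the other 3 stood below room air.

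**Figure D1:**
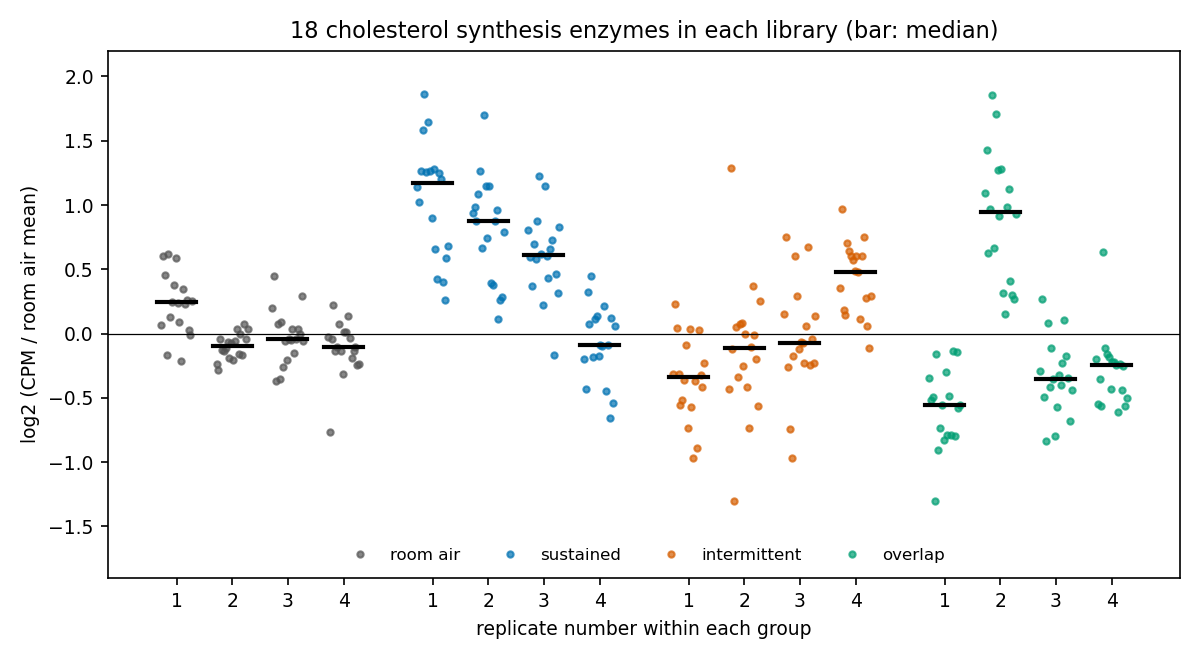
Each point is 1 of 18 synthesis enzymes in 1 library, as the log2 ratio of its CPM to the room air mean (vertical axis), by group and replicate number (horizontal axis), with the bar at the library's median. Sustained replicates 1 to 3 and overlap replicate 2 have medians between 0.61 and 1.17, and all other libraries lie between −0.56 and 0.48.

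Overlap replicate 2 was the highest overlap library for 18 of 18 enzymes, beside 29.7% of all genes tested. Its CPM was 2.63 times the mean of the other 3 at the median enzyme, with a range from 1.44 to 4.04. Its ribosomal share, 2.53%, was the lowest of the overlap group, where the others held 9.23% to 16.8%, and the part of this in the enzyme levels was not tested. In room air, replicate 1 had the highest ribosomal share of its group, 10.2%. It was the highest library for 13 of 18 enzymes, beside 28.3% of all genes. Sustained replicate 1 had the lowest share of its group, 1.55%, where the highest was 2.77%. It was the highest of its group for 14 of 18 enzymes, beside 22.5% of all genes. Intermittent replicate 4, with the lowest share of its group, 18.5%, was the highest for 17 of 18 enzymes, beside 22.8%. The part of the share in these orders was not tested. The typical SD of a synthesis enzyme among libraries of 1 group was 0.20 log2 units in room air, 0.54 under sustained, 0.43 under intermittent and 0.70 under overlap hypoxia. For the 10928 genes whose mean reached 1 CPM the medians were 0.20, 0.19, 0.27 and 0.27, and for the other 16 members 0.21, 0.21, 0.24 and 0.30. The difference in spread between the lists was not tested.

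In the mevalonate part of the pathway, Mvk and Pmvk, the kinases that phosphorylate mevalonate in succession, were called between sustained and intermittent hypoxia. Mvk stood at 13.5, 9.56, 7.62 and 9.56 CPM in the room air libraries and at 23.7, 18.03, 12.7 and 12.3 under sustained hypoxia. It was at 10.1, 9.08, 8.21 and 11.2 CPM under intermittent and at 6.995, 15.2, 6.989 and 7.72 under overlap hypoxia. All sustained libraries lay above all intermittent ones, by a log2 fold change of 0.79 (SE 0.26, edgeR adjusted p = 0.0209). Pmvk stood at 20.4, 20.96, 24.2 and 26.8 CPM in room air and at 68.7, 48.7, 37.2 and 24.2 under sustained hypoxia. The overlap libraries held 9.28, 44.8, 12.8 and 15.5 CPM, with replicate 2 far above the rest. Intermittent libraries held 18.5, 9.30, 13.7 and 25.3 CPM and overlapped the sustained ones at the top. The log2 fold change between these groups was 1.41 (SE 0.48, edgeR adjusted p = 0.0320). The Mvk call was lost in 5 of 26 alternative fits (other tools or settings, or 1 library left out) and the Pmvk call in 9.

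The remaining enzymes before squalene are given by their ranges. Acat2, the thiolase that joins acetyl-CoA units, ran from 43.8 to 59.4 CPM in room air and from 45.1 to 113.7 under sustained hypoxia. Hmgcs1, the cytosolic HMG-CoA synthase, ran from 61.3 to 159 CPM in room air and reached 281 in overlap replicate 2. Mvd, the mevalonate diphosphate decarboxylase, ran from 5.76 to 11.3 in room air and from 10.0 to 26.7 under sustained hypoxia. Idi1, the isopentenyl diphosphate isomerase, ran from 106 to 126 CPM in room air and from 101 to 274 under sustained hypoxia. Fdps, the farnesyl diphosphate synthase, had the largest sustained log2 fold change of the 18, 1.28 (SE 0.49, edgeR adjusted p = 0.334). Its sustained libraries held 339.1, 352.9, 253.5 and 117.2 CPM against 90.5 to 128.9 in room air, so the fourth lay within the room air range. Fdft1, the squalene synthase, ran from 58.7 to 87.0 CPM in room air and from 73.6 to 161 under sustained hypoxia.

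Squalene epoxidase, the product of Sqle, is an oxygen-using and rate-controlling step. Sqle stood at 42.6, 27.0, 24.6 and 22.9 CPM in room air and at 52.8, 47.6, 33.0 and 25.1 under sustained hypoxia. The intermittent libraries read 17.1, 23.8, 26.2 and 39.7 CPM, and the overlap libraries 16.01, 53.3, 16.3 and 20.98. The groups overlapped, and the sustained log2 fold change was 0.44 (SE 0.40, edgeR adjusted p = 0.750). The other oxygen-using enzymes of the set are Cyp51 (the lanosterol demethylase), Msmo1 (the C4-methyl oxidase) and Sc5d (the lathosterol desaturase). Their sustained log2 fold changes were 0.42, 0.69 and 0.21, and under intermittent hypoxia −0.09, 0.08 and −0.33, with no call in either comparison. Lss, the lanosterol synthase, which uses no oxygen, had 0.95 and 0.16. The late enzymes outside the oxygen-using ones had sustained values of 0.36 (Tm7sf2), 0.77 (Nsdhl), −0.03 (Hsd17b7), 0.28 (Ebp) and 0.61 (Dhcr7). A difference by oxygen use was not tested.

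Among the late steps, Tm7sf2 and Ebp were called between sustained and intermittent hypoxia. Tm7sf2, a sterol C14 reductase, stood at 151.4, 179.6, 180.1 and 193.4 CPM in room air and at 235.2, 227.6, 236.6 and 204.0 under sustained hypoxia. It was at 89.5, 105.2, 149.9 and 189.7 CPM under intermittent and at 125.2, 194.7, 133.1 and 148.5 under overlap hypoxia. The sustained libraries were above every other library for this gene, and the log2 fold change against intermittent was 0.76 (SE 0.19, edgeR adjusted p = 0.00385). Ebp, the sterol isomerase, stood at 265.9, 273.5, 260.0 and 242.6 CPM in room air and at 312.6, 311.3, 357.9 and 283.0 under sustained hypoxia. The intermittent libraries held 208.5, 227.5, 253.1 and 270.7 CPM and the overlap libraries 235.2, 320.9, 204.4 and 218.2. Sustained exceeded intermittent by 0.40 on the log2 scale (SE 0.14, edgeR adjusted p = 0.0309), with no overlap of libraries. The Ebp call was lost in 6 of 26 alternative fits and the Tm7sf2 call in 1.

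The remaining late enzymes had no call. Nsdhl, the C4 decarboxylating dehydrogenase, ran from 38.4 to 51.2 CPM in room air and from 41.0 to 100 under sustained hypoxia. Hsd17b7, the 3-ketosteroid reductase of the pathway, was the enzyme with the least difference, 26.1 ± 3.67 CPM (SD, n = 4) in room air and 25.5 ± 7.55 under sustained hypoxia. Sc5d ran from 202 to 443 CPM under sustained hypoxia, on both sides of the room air range of 249 to 361. Dhcr7, a reductase of the last steps to cholesterol, had 38.6 ± 5.53 CPM in room air and 59.0 ± 13.0 under sustained hypoxia.

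Under intermittent hypoxia, 0 of the 18 enzymes were called against room air, beside 37.1% of all genes tested. The median log2 fold change was −0.03, 8 of the 18 were above 0, and the range ran from −0.46 (Pmvk) to 0.76 (Hmgcs1). With the ribosomal share as a covariate this median was 0.72. Under overlap hypoxia, 0 of the 18 were called, beside 6.29% of all genes, with a median of −0.04 and 9 above 0. The all-gene medians in these comparisons were 0.03 and 0.03. Intermittent and overlap exposure are compared with the same room air libraries. Between overlap and intermittent hypoxia, 0 of the 18 were called, beside 6.15% of all genes, with a median of −0.004. That median was −0.60 with the ribosomal covariate and −0.42 without overlap replicate 2, and the overlap median against room air was −0.40 without that library. In these 3 comparisons edgeR gave 1, 0 and 0 of the 18 an unadjusted p under 0.05. Over the 14553 genes tested the counts were 6725, 3320 and 3689. DESeq2 and limma-voom called 0 of the 18. Over all genes DESeq2 called 39.9%, 10.9% and 11.8%, and limma-voom 36.6%, 9.44% and 3.39%.

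Between the sustained and intermittent groups, 4 of the 18 enzymes were called, all higher under sustained hypoxia, which is 22.2% of the list beside 38.4% of all genes (18.9% in that direction). The median log2 fold change of the list was 0.62, with 16 of 18 above 0, against −0.03 over all genes. With the ribosomal share as a covariate, 0 of the 4 calls were kept, the median changed sign to −0.15, and Pmvk to −0.29. With a correction for gene length the calls of Mvk, Pmvk and Ebp were lost, where 32.9% of all genes were called. The count ran from 1 without intermittent replicate 2 (beside 31.1% of all genes) to 12 without overlap replicate 2 (beside 39.1%). Overlap replicate 2 belongs to neither group but enters the shared estimate of the spread: the standard error of Mvk went from 0.26 to 0.20 without it. Without sustained replicate 4 the count was 9, beside 32.6% of all genes.

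Overlap hypoxia, compared with sustained hypoxia, gave log2 fold changes below 0 for all 18 enzymes, with a median of −0.60 and no call. The 0 calls stand beside 0.165% of all genes, and the lowest adjusted p by edgeR was 0.0837 (Mvk). By edgeR, 7 of the 18 had an unadjusted p under 0.05, beside 2978 of the 14553 genes tested. Here 1 library decided the outcome. Without overlap replicate 2, 14 of the 18 enzymes were called, all lower in the overlap group, and the median was −1.07. Calls rose over the whole table as well, to 1547 genes or 10.3% of those tested, from 24 genes. Dhcr7 then had −1.12 (edgeR adjusted p = 0.00277), Fdps −1.60 (0.0122) and Pmvk −1.83 (0.0108). Leaving out each of the other 15 libraries gave 0 calls. On all libraries DESeq2 called 2 of the 18 and limma-voom with quality weights called 7, beside 7.83% and 8.41% of all genes to which the same tools gave an adjusted p.

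**Figure D2:**
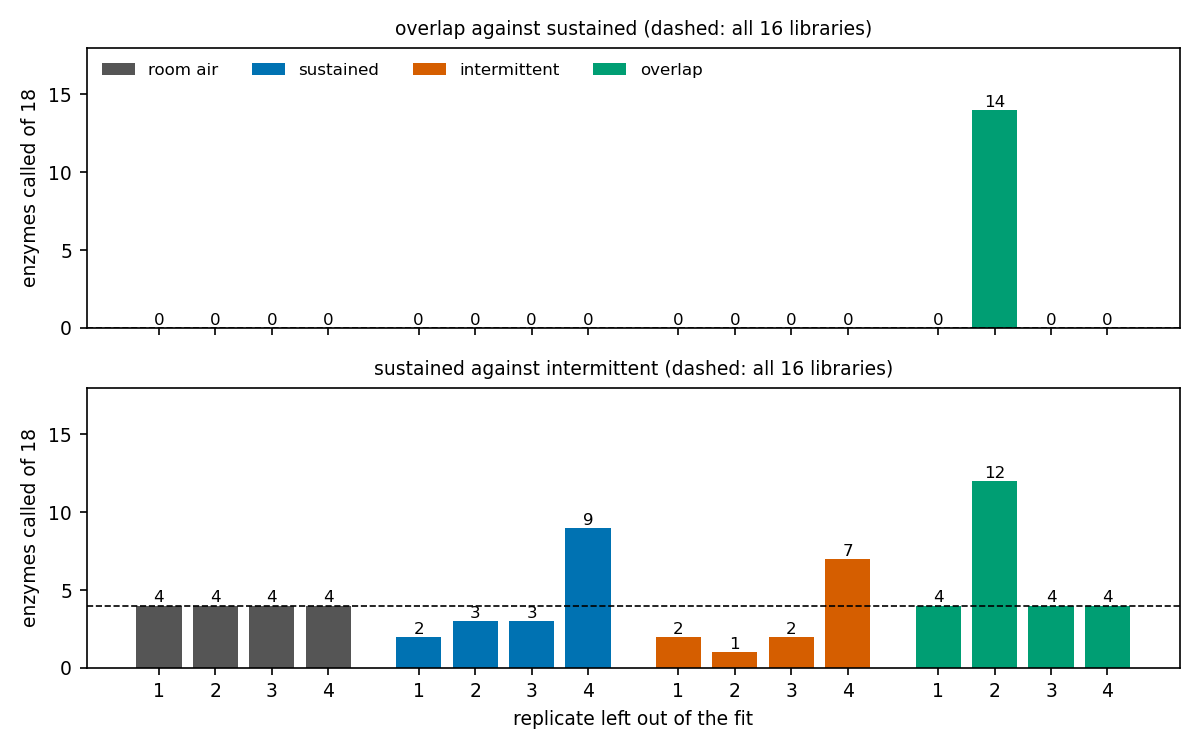
The bars give how many of the 18 synthesis enzymes edgeR called (vertical axis) when 1 library was left out (horizontal axis, replicate number coloured by group), for overlap against sustained hypoxia above and sustained against intermittent hypoxia below. The dashed lines mark the counts with all 16 libraries, 0 and 4, and leaving out overlap replicate 2 gives 14 and 12.

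The departure of overlap hypoxia from the sum of its parts was taken as the overlap change less the sustained and the intermittent changes on the log2 scale. It was below 0 for all 18 enzymes, with a median of −0.69. Of them 0 were called by edgeR, DESeq2 or limma-voom, beside 0.454%, 5.38% and 1.87% of all genes. By edgeR 1 of the 18 had an unadjusted p under 0.05, beside 2544 of the 14553 genes tested. Without overlap replicate 2, 3 enzymes were called, Fdft1, Lss and Dhcr7, beside 1.61% of all genes in that fit.

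Insig2, Scap, Nr1h3 and Npc2 fell under intermittent hypoxia, and Abcg5, Abcg8 and Nr1h2 rose. Of the 16 members outside the synthesis pathway, 7 were called under intermittent hypoxia, which is 43.8% beside 37.1% of all genes, so the share is near the background. They were 3 higher (18.8% of the list, 18.9% of all genes) and 4 lower (25.0% and 18.3%). The median log2 fold change was 0.04. Under sustained hypoxia 0 of the 16 were called by edgeR, beside 0.0481% of all genes. Of the 16, 4 had an unadjusted p under 0.05 by edgeR, beside 1672 of the 14553 genes tested. DESeq2 and limma-voom each called 1, Insig2, beside 1.57% and 1.7% of all genes. Under overlap hypoxia 1 was called, lower, beside 2.89% of all genes in that direction.

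**Figure D3:**
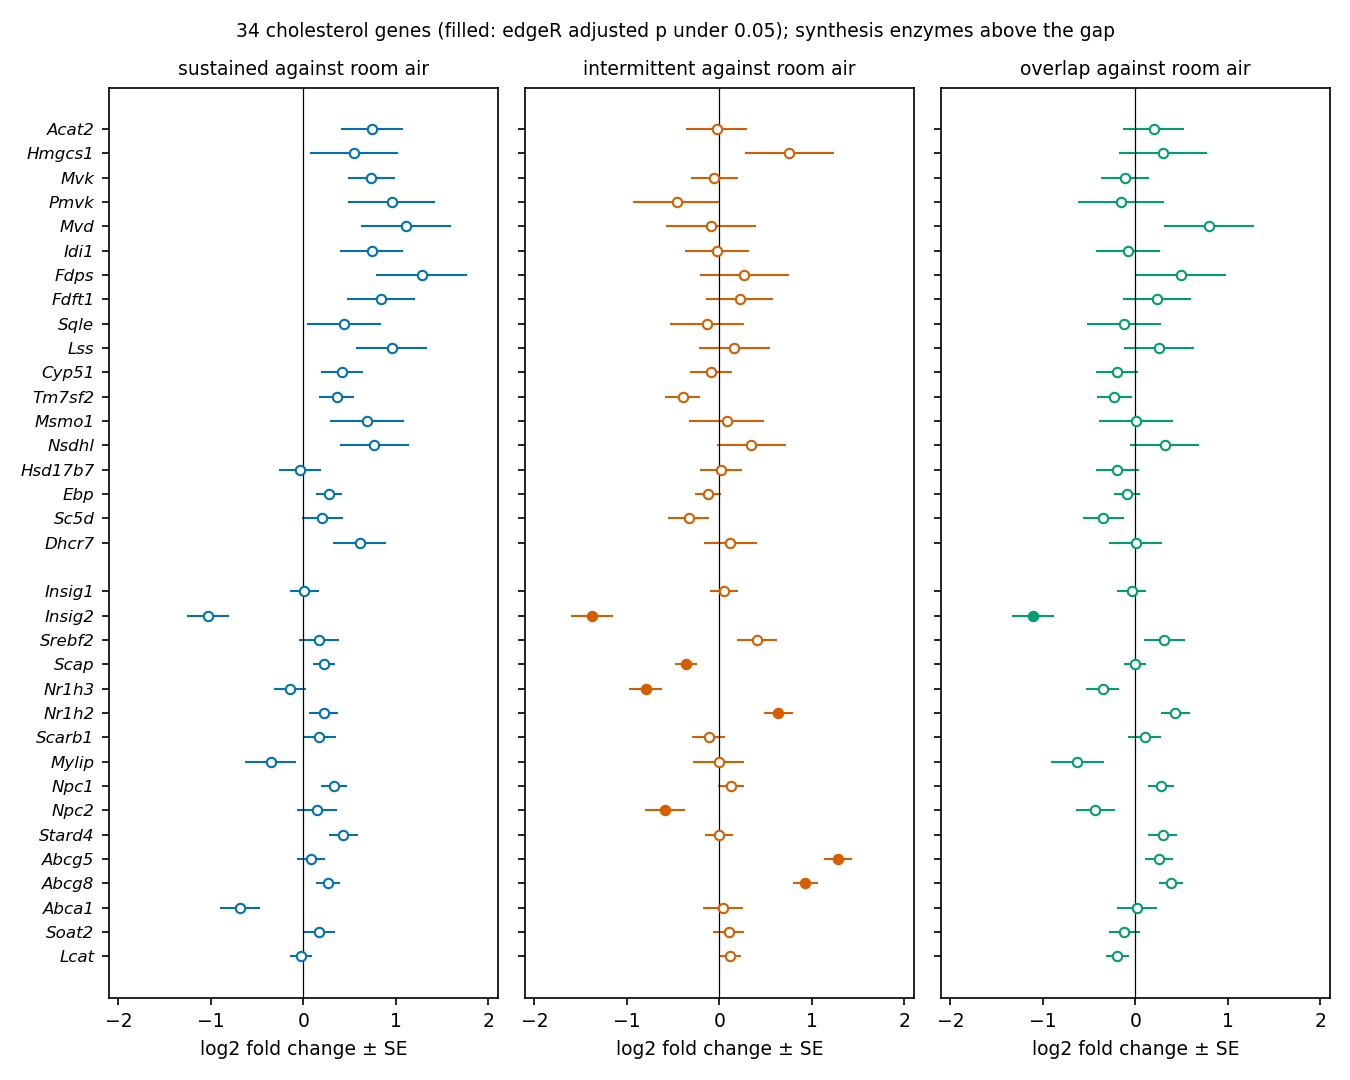
Log2 fold change against room air (horizontal axis, bars ± SE) for the 34 members (vertical axis) in the 3 exposures, with 18 synthesis enzymes above the gap and filled points for an edgeR adjusted p under 0.05. Of the synthesis enzymes 17 lie above 0 under sustained hypoxia, none is filled, and Insig2 lies near or below −1 in all 3 panels.

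Insig2 encodes the INSIG protein whose liver transcript is known to rise on fasting. The gene lies on chr1:121304353-121332589, minus strand (GRCm38). It stood at 149.5, 127.8, 137.2 and 78.4 CPM in room air and at 50.01, 54.7, 56.8 and 80.3 under sustained hypoxia. The intermittent libraries held 52.3, 43.4, 55.5 and 39.0 CPM and the overlap libraries 75.0, 34.8, 64.6 and 54.1. Every intermittent and overlap library lay below every room air library, and sustained replicate 4 lay just above room air replicate 4. The log2 fold change was −1.37 under intermittent (SE 0.23, edgeR adjusted p = 0.000193) and −1.11 under overlap hypoxia (SE 0.23, edgeR adjusted p = 0.0111). Both calls were kept in all 26 alternative fits. Under sustained hypoxia it was −1.03 (SE 0.23, edgeR adjusted p = 0.0959). The 3 values share the room air libraries, and the departure from additivity, 1.29 (SE 0.32), had an edgeR adjusted p of 0.0701.

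Insig1, the other INSIG gene and a known SREBP target, showed no such difference. It stood at 201.2, 142.6, 184.6 and 183.0 CPM in room air and at 231.8, 177.5, 175.7 and 131.3 under sustained hypoxia. Intermittent libraries held 198.1, 168.3, 181.3 and 188.7 CPM and the overlap libraries 165.7, 203.6, 152.5 and 169.4. All groups overlapped, and the log2 fold changes against room air were 0.01, 0.05 and −0.04 (SE 0.15 each). Sustained replicate 4 and overlap replicate 2, the lowest and highest of their groups for the enzymes, were also the lowest and highest for Insig1, while intermittent replicate 4, the highest of its group for 17 of 18 enzymes, was not the highest for Insig1.

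**Figure D4:**
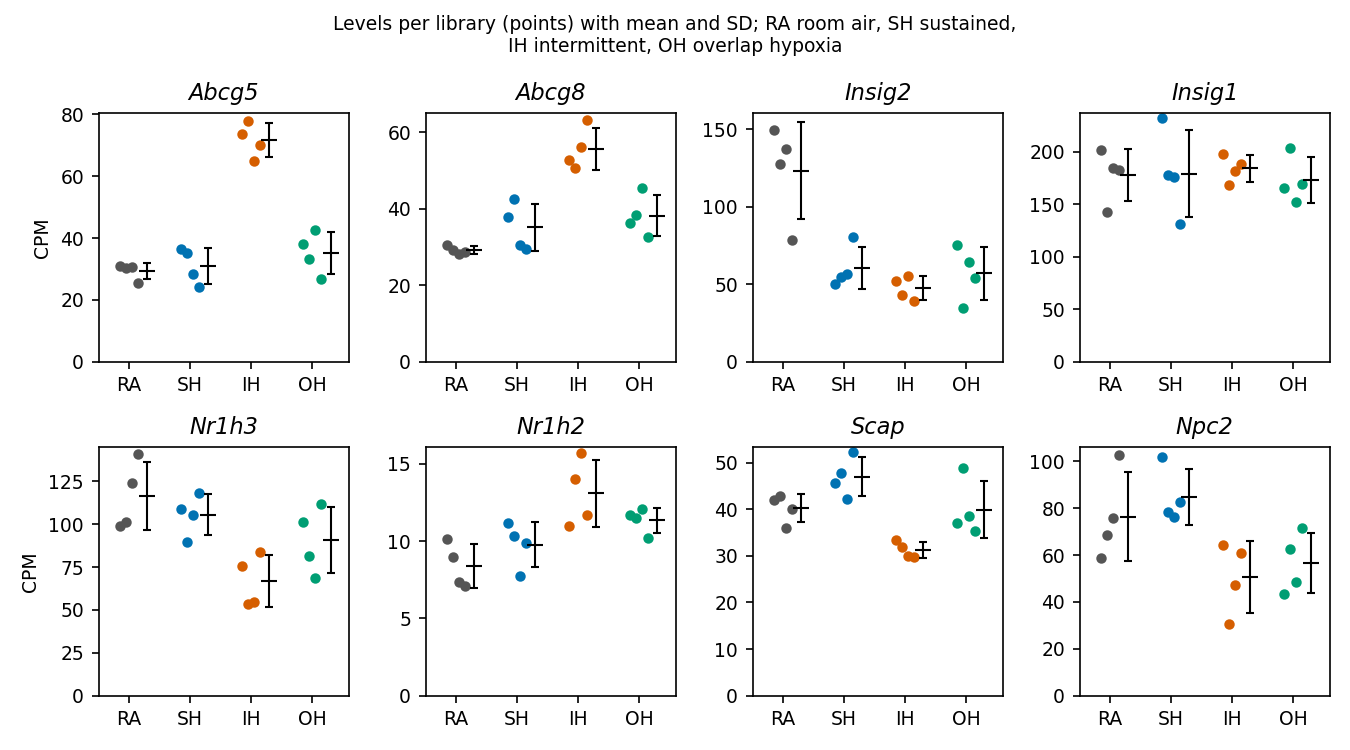
Points give CPM (vertical axis) in each library of room air (RA), sustained (SH), intermittent (IH) and overlap (OH) hypoxia, with the mean ± SD beside them, for 8 members. The intermittent libraries of Abcg5 and Abcg8 (64.8 to 77.7 and 50.7 to 63.2 CPM) lie above every other library, and Insig2 is lower in nearly all exposed libraries than in room air.

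Srebf2 and Scap encode the factor and its escort. Srebf2 stood at 12.7, 12.8, 9.90 and 9.82 CPM in room air, 14.9, 16.4, 9.16 and 10.3 under sustained, 9.64, 15.8, 16.7 and 17.8 under intermittent and 11.6, 19.8, 11.6 and 12.9 under overlap hypoxia. The groups overlapped and no comparison called it. Scap stood at 41.9, 42.8, 36.0 and 40.0 CPM in room air, 45.7, 47.8, 42.2 and 52.3 under sustained, 33.3, 31.9, 30.05 and 29.6 under intermittent and 37.1, 48.8, 38.5 and 35.3 under overlap hypoxia. The intermittent libraries were the 4 lowest of all 16. Scap fell by 0.36 on the log2 scale under intermittent hypoxia against room air (SE 0.12, edgeR adjusted p = 0.0233) and was 0.59 higher under sustained than intermittent hypoxia (SE 0.12, edgeR adjusted p = 0.000883). The first call was lost in 4 of 26 alternative fits, among them those without room air replicate 2 or intermittent replicate 3, with adjusted p up to 0.0595 when 1 library was left out.

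The liver X receptor genes moved in opposite directions under intermittent hypoxia. Nr1h3, the receptor most abundant in liver, stood at 99.1, 101.4, 124.2 and 140.8 CPM in room air and at 109.1, 89.6, 105.2 and 118.5 under sustained hypoxia. Under intermittent hypoxia the libraries held 75.4, 53.6, 54.9 and 83.6 CPM, all below room air, and the overlap libraries 101.1, 81.2, 68.9 and 111.9. Nr1h3 fell by 0.80 on the log2 scale under intermittent hypoxia (SE 0.17, edgeR adjusted p = 0.00141) and was 0.66 higher under sustained than intermittent (SE 0.17, edgeR adjusted p = 0.00578). Nr1h2, the receptor found in most tissues, stood at 10.1, 9.0, 7.4 and 7.1 CPM in room air, 11.2, 10.3, 7.7 and 9.9 under sustained, 10.97, 14.03, 15.7 and 11.7 under intermittent and 11.7, 11.5, 12.1 and 10.2 under overlap hypoxia. It rose by 0.64 under intermittent hypoxia (SE 0.16, edgeR adjusted p = 0.00375), with no overlap against room air, and the sustained group lay below the intermittent group (log2 fold change −0.42, edgeR adjusted p = 0.0421), a call lost in 14 of 26 alternative fits. Overlap hypoxia had −0.36 for Nr1h3 and 0.43 for Nr1h2, neither called.

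Nr1h3 is also expressed by Kupffer cells, the liver's resident macrophages. The summed CPM of 8 Kupffer cell markers ran from 89.9 to 167.5 in room air, 62.9 to 111.8 under sustained, 33.1 to 66.6 under intermittent and 37.8 to 43.0 under overlap hypoxia. Of the 8, 7 were called lower under intermittent and 7 under overlap hypoxia, beside 18.3% and 2.89% of all genes, and none was at 0 in every library. Of 5 hepatocyte markers 3 were called lower under intermittent hypoxia. Of 8 sinusoidal endothelial markers, 1 was called lower and 2 higher under intermittent hypoxia, the latter beside 18.9% of all genes higher. Under overlap hypoxia 4 of these 8 were called lower. The summed CPM of the endothelial markers was 102.2 to 127.2 in room air, 113.1 to 128.5 under intermittent and 48.2 to 86.9 under overlap hypoxia. The part of these cell types in the levels of Nr1h3 and of Npc2 was not tested. In whole-liver RNA, fewer cells of a type and less RNA per cell cannot be told apart.

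Of the uptake genes, Scarb1 encodes the HDL receptor SR-BI, through which the liver takes up cholesteryl ester. Scarb1 stood at 62.5, 64.5, 53.0 and 60.0 CPM in room air, 62.8, 64.0, 54.1 and 89.9 under sustained, 67.8, 50.7, 44.7 and 58.2 under intermittent and 60.3, 47.5, 85.0 and 64.8 under overlap hypoxia. The groups overlapped in every comparison, and none called it. Mylip encodes the ubiquitin ligase IDOL, which marks lipoprotein receptors for breakdown. It ran from 1.87 to 5.02 CPM over all 16 libraries and had no call.

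Inside the cell, NPC2 and NPC1 pass cholesterol out of the lysosome, and STARD4 carries it through the cytosol. Npc2 stood at 58.7, 68.6, 75.9 and 102.7 CPM in room air, 102.0, 78.6, 76.2 and 82.5 under sustained, 64.2, 30.6, 47.4 and 60.7 under intermittent and 43.6, 62.7, 48.7 and 71.5 under overlap hypoxia. Npc2 fell by 0.59 on the log2 scale under intermittent hypoxia (SE 0.22, edgeR adjusted p = 0.0376), with the ranges overlapping at 58.7 to 64.2 CPM. That call was lost in 8 of 26 alternative fits, among them those without room air replicate 3 or 4 or intermittent replicate 2 or 3, with adjusted p up to 0.162. Against intermittent hypoxia the sustained group was 0.74 higher (SE 0.22, edgeR adjusted p = 0.0112), with no overlap.

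Stard4, a known SREBP2 target, stood at 66.6, 48.0, 55.5 and 53.0 CPM in room air, 80.1, 75.5, 77.5 and 67.9 under sustained, 50.1, 53.9, 51.2 and 67.1 under intermittent and 65.2, 79.0, 47.5 and 81.7 under overlap hypoxia. All sustained libraries lay above all room air and intermittent ones. The log2 fold change was 0.43 against room air (SE 0.16, edgeR adjusted p = 0.290) and 0.44 against intermittent hypoxia (SE 0.16, edgeR adjusted p = 0.0318), the second lost in 8 of 26 alternative fits. Npc1 had 70.7 ± 9.20 CPM (SD, n = 4) in room air and 89.1 ± 10.8, 77.0 ± 12.7 and 85.7 ± 7.28 under sustained, intermittent and overlap hypoxia, with no call.

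The bile transporters Abcg5 and Abcg8 rose under intermittent hypoxia, to levels above every library of the other groups. Abcg5 and Abcg8 lie head to head on chromosome 17, Abcg5 on the minus strand at chr17:84658234-84683011 and Abcg8 on the plus strand at chr17:84676302-84700333 (GRCm38). An upstream Abcg8 start lies within Abcg5, so 1.24% and 0.9% of their 50-base words are found in the partner or another gene. Between the Abcg5 start and the downstream RefSeq start of Abcg8 lie 109 bases, chr17:84683012-84683120, shown on the plus strand because both genes are read outward from it. None of the 4 motifs above occurs in it. The window of 250 bases before that Abcg8 start is longer than the interval and holds 2 NF-Y boxes. Both lie outside the interval, on the Abcg5 side, and the nearer box directly adjoins it.
Abcg5 and Abcg8 interval: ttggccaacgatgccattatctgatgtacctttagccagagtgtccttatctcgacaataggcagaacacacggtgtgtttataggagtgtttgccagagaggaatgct

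Abcg5 stood at 31.1, 30.3, 30.6 and 25.6 CPM in room air and at 36.5, 35.3, 28.4 and 24.2 under sustained hypoxia. Under intermittent hypoxia the libraries held 73.6, 77.7, 64.8 and 70.2 CPM and the overlap libraries 38.0, 33.1, 42.5 and 26.8. The 4 intermittent libraries were above all 12 others, and the rest overlapped. Abcg5 rose by 1.28 on the log2 scale under intermittent hypoxia (SE 0.15, edgeR adjusted p = 8.97e-06), a fold of 2.43, and the call was kept in all 26 alternative fits.

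Abcg8 stood at 30.6, 29.2, 28.2 and 28.8 CPM in room air and at 37.7, 42.6, 30.6 and 29.4 under sustained hypoxia. Under intermittent hypoxia the libraries held 52.7, 50.7, 56.0 and 63.2 CPM and the overlap libraries 36.4, 38.2, 45.5 and 32.7. As for Abcg5, the intermittent libraries of Abcg8 lay above all others. Unlike for Abcg5, all its overlap libraries lay above all room air ones, a pattern held by 6.58% of all genes. Abcg8 rose by 0.93 under intermittent hypoxia (SE 0.14, edgeR adjusted p = 4.45e-05), a fold of 1.91. Under sustained and overlap hypoxia the log2 fold changes were 0.27 and 0.38, not called, against 0.08 and 0.25 for Abcg5.

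Both transporters were lower under overlap than under intermittent hypoxia. These were the 2 of 16 members called in that comparison (12.5%, beside 2.95% of all genes lower). The log2 fold change was −1.03 for Abcg5 (SE 0.15, edgeR adjusted p = 0.00707) and −0.55 for Abcg8 (SE 0.13, edgeR adjusted p = 0.0269). With only the compared groups fitted neither was called, nor was any gene of the whole table. The Abcg8 call was also lost without intermittent replicate 3 or overlap replicate 1, 2 or 4, with adjusted p up to 0.108. Abcg5 was the 1 of 16 members whose departure from additivity was called, −1.11 (SE 0.21, edgeR adjusted p = 0.0373), beside 0.234% of all genes lower. That call was lost in 10 of 25 alternative fits, 9 of them with 1 library left out, where adjusted p reached 0.101. Abcg8 had −0.81 (SE 0.19, edgeR adjusted p = 0.0575).

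Abca1 encodes the transporter that loads cholesterol onto nascent HDL. It stood at 33.5, 26.1, 37.7 and 19.0 CPM in room air, 19.9, 15.3, 18.2 and 18.9 under sustained, 41.3, 29.4, 24.4 and 24.3 under intermittent and 36.7, 19.6, 30.6 and 30.5 under overlap hypoxia. The sustained libraries were all below the intermittent ones, with a log2 fold change of −0.73 (SE 0.22, edgeR adjusted p = 0.0129). That call was lost in 3 of 26 alternative fits. They were those without intermittent replicate 1 (adjusted p 0.0669), with the ribosomal covariate and with a correction for gene length. Over the alternatives the value ran from −0.82 to −0.27, with edgeR adjusted p up to 0.863. Against room air the log2 fold change was −0.69 (SE 0.22, edgeR adjusted p = 0.226). Abca1 thus did not follow Abcg5 and Abcg8, being near 0 against room air under intermittent hypoxia (0.04, SE 0.21).

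In all, 8 of the 16 members outside synthesis were called between sustained and intermittent hypoxia, 50% beside 38.4% of all genes. The 4 higher under sustained hypoxia were Scap, Nr1h3, Npc2 and Stard4. The 4 lower, beside 19.5% of all genes in that direction, were Abcg5 (−1.20, SE 0.15, edgeR adjusted p = 2.43e-05), Abcg8 (−0.66, SE 0.13, edgeR adjusted p = 0.000788), Abca1 and Nr1h2. Between overlap and sustained hypoxia 0 of the 16 were called by edgeR, beside 0.165% of all genes. DESeq2 and limma-voom each called 1, Abca1, which is near their background of 7.83% and 8.41%. By edgeR 2 of the 16 had an unadjusted p under 0.05, beside 2978 of the 14553 genes tested.

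The ribosomal share bears on the intermittent calls as a group. With it as a covariate, edgeR's calls over all genes under intermittent hypoxia went from 5404 to 77, and those between sustained and intermittent hypoxia from 5584 to 1. Insig2 and Abcg5 were still called under intermittent hypoxia, with log2 fold changes of −2.19 and 1.48 and adjusted p of 0.0300 and 0.0324. Abcg8 was not called, with a log2 fold change of 1.12 (adjusted p 0.0539) whose SE went from 0.14 to 0.26. Nr1h3 had −0.56 (0.401), Nr1h2 0.30 (0.646), Scap −0.11 (0.834) and Npc2 −0.21 (0.825), all nearer 0 than without the covariate and with larger SE.

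Of the esterifying enzymes, Soat2 encodes the acyltransferase of hepatocytes and Lcat the plasma enzyme that esterifies cholesterol on HDL. Soat2 ran from 14.3 to 28.0 CPM and Lcat from 176.5 to 255.7 over all 16 libraries. Neither was called by edgeR in any of the 7 comparisons. Lcat was lower in all overlap libraries, 188 ± 8.23 CPM (SD, n = 4), than in all intermittent ones, 233 ± 12.7 CPM, with an edgeR adjusted p of 0.114.

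A wider list of 40 genes of sterol sensing, lipoprotein and bile acid metabolism had 39 in the table, all tested. Of these 39, 16 were called under intermittent hypoxia (8 higher and 8 lower, 41.0% beside 37.1% of all genes), 3 under overlap hypoxia (2 higher and 1 lower, 7.69% beside 6.29%) and 0 under sustained hypoxia (beside 0.0481%). The intermittent and overlap shares are near the background. The list medians were 0.003, 0.07 and 0.18. Under sustained hypoxia edgeR gave 7 of the 39 an unadjusted p under 0.05, beside 1672 of the 14553 genes tested. Under intermittent hypoxia the lowest adjusted p belonged to Rnf145, Gramd1c and Cyp8b1. Rnf145, a ubiquitin ligase of the endoplasmic reticulum that acts on SCAP, had 3.17 ± 0.458 CPM (SD, n = 4) in room air and 6.44 ± 2.13, 9.32 ± 2.12 and 7.70 ± 2.60 under sustained, intermittent and overlap hypoxia. Its log2 fold changes were 1.03 (edgeR adjusted p = 0.127), 1.55 (0.000112) and 1.28 (0.00761).

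Gramd1c, of a family that carries sterol from the plasma membrane, rose by 1.09 under intermittent hypoxia (edgeR adjusted p = 0.00021), from 9.02 ± 0.866 to 19.2 ± 2.91 CPM. Cyp8b1, the sterol 12-hydroxylase that sets the share of cholic acid in bile, fell by 1.66 on the log2 scale (edgeR adjusted p = 0.000294), from 338.2 ± 27.0 to 107.1 ± 25.6 CPM. Cyb5r3, a reductase that serves the oxygen-using sterol enzymes, had 155.2 ± 12.1 CPM in room air and 238.1 ± 33.0, 252.9 ± 50.7 and 248.3 ± 53.8 CPM under sustained, intermittent and overlap hypoxia. It was called under intermittent (log2 fold change 0.70, edgeR adjusted p = 0.00212) and overlap hypoxia (0.68, edgeR adjusted p = 0.0207) and not under sustained hypoxia (0.62, adjusted p = 0.145). Soat1, the acyltransferase of macrophages and other cells, fell by 1.35 under overlap hypoxia (edgeR adjusted p = 0.0379), from 1.43 ± 0.104 to 0.573 ± 0.122 CPM, beside the fall in the Kupffer cell markers given above, whose part in it was not tested. Under sustained hypoxia it had −1.12 (edgeR adjusted p = 0.230).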

How the data were processed

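RNA from whole liver (1 ug per library, TruSeq kit, per the labels' protocols) was read as 16 libraries. Bowtie 1.3.0, RSEM and GRCm38 are named, per the submitters' processing notes, and the authors deposited a table of expected counts for 55487 genes, 49.3% of whose nonzero values are not whole. The sources used here state neither the annotation release nor a strand setting. Gene names and positions are those of GENCODE M21 (GRCm38), matched by Ensembl identifier, and promoter windows are RefSeq's. The table names 55227 of its genes by symbol in that annotation, and the other 260 have none.

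Expected counts were rounded to whole numbers, filtered with filterByExpr (14553 genes kept), scaled by TMM and fitted in 1 model of all 16 libraries with edgeR 4.0.16 (R 4.3.3), with quasi-likelihood tests of 7 comparisons, checked on simulated data. CPM values use the same scaling. Totals of 10940253 to 64789587 set the counting error. Alternatives were DESeq2 1.42.0, limma-voom (limma 3.58.1), other scalings and filters, a replicate block, the ribosomal share or gene length as a correction, a fit of the compared groups only, and each library left out. Values in all libraries are given for the 13 members called in any comparison and for Sqle, Insig1, Srebf2 and Scarb1. Values of Fdps were added after they were seen. Of the wider list, the 3 genes with the lowest adjusted p per exposure are given. The members and lists were chosen with earlier results of these data known.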

Additional observations from a re-analysis of the deposited data

Results flagged for a closer look

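Groups of 4 libraries were searched for a highest or lowest library that stood apart from the other 3 by more than Dixon's 95% critical share of the group's range, which chance gives in about 1 of 20 groups. Of 136 groups examined, 15 met this, and 9 of those were the highest value in overlap replicate 2, 8 of them in synthesis enzymes. These were Acat2 at 110.0 CPM, Mvk at 15.2, Fdps at 353.7, Fdft1 at 161.7, Sqle at 53.3, Lss at 46.9, Sc5d at 354.3 and Dhcr7 at 72.9 CPM, together with Srebf2 at 19.8 CPM. Lss was also lowest apart in sustained replicate 4 (18.1 CPM) and highest apart in intermittent replicate 4 (29.3 CPM). Mvd was highest apart in room air replicate 1 (11.3 CPM). Mylip was lowest apart in intermittent replicate 3 (2.23 CPM) and highest apart in overlap replicate 3 (4.02 CPM), the library with the lowest total. Abcg5 was lowest apart in room air replicate 4 (25.6 CPM).

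The change of Abcg5 under overlap hypoxia differed from the sum of its sustained and intermittent changes by −1.11 on the log2 scale (edgeR adjusted p = 0.0373). That call was lost in 10 of 25 alternative fits. They were the fit with the ribosomal share as a covariate and 9 with 1 library left out, where adjusted p by edgeR reached 0.101.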

How the results depend on the processing

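Calls of Insig2 (intermittent and overlap) and Abcg5 (intermittent) against room air were kept under all 26 alternatives. DESeq2 called 2 enzymes between overlap and sustained hypoxia (0 by edgeR), beside 7.83% of all genes. Between sustained and intermittent hypoxia it called 9 (4 by edgeR), beside 41.1% of all genes (38.4% by edgeR). Of the other 16 members DESeq2 called 1 under sustained hypoxia, 1 between overlap and sustained hypoxia and 3 for the departure (0, 0 and 1 by edgeR). These stand beside 1.57%, 7.83% and 5.38% of all genes. Limma-voom gave 7 enzymes between overlap and sustained hypoxia, beside 8.41% of all genes. It gave 1, 1 and 3 of the other members in the same 3 comparisons, beside 1.7%, 8.41% and 1.87%. With only the compared groups fitted, 1 other member was called under sustained hypoxia and 0 between overlap and intermittent hypoxia (2 with all groups). The all-gene shares there were 0.662% and 0.0%. With the ribosomal share as covariate, 0 enzymes and 0 other members were called between sustained and intermittent hypoxia, beside 0.00687% of all genes. Pmvk reversed there to −0.29. Under intermittent hypoxia 2 other members were called (7 without the covariate), beside 0.529% of all genes (37.1% without it). Between overlap and intermittent hypoxia and for the departure 0 other members were called, beside 0.0275% and 0.0481% of all genes. The gene length offset gave 2 other members for the departure, beside 0.55% of all genes. The cause of these differences was not tested. Upper-quartile scaling moved the median of all genes under intermittent hypoxia from 0.03 to 0.12. Leaving out each library gave these ranges of enzymes called: 0 to 0 under sustained, 0 to 1 under intermittent (1 without intermittent replicate 4), 0 to 0 under overlap, 0 to 14 between overlap and sustained, 0 to 0 between overlap and intermittent, 1 to 12 between sustained and intermittent, and 0 to 3 for the departure. For the other members they were 0 to 1 (1 without room air replicate 4 or overlap replicate 2), 5 to 8, 1 to 1, 0 to 1 (1 without overlap replicate 2), 1 to 3, 6 to 8 and 0 to 3. Over all genes, the shares called in these fits were 0.0133% to 0.381% under sustained, 28.6% to 37.6% under intermittent and 1.17% to 7.92% under overlap hypoxia. Overlap against sustained had 0.0% to 10.3%, overlap against intermittent 0.107% to 9.51%, and sustained against intermittent 30.9% to 39.1%. For the departure the shares were 0.0133% to 1.61%. With the replicate number as a block, 2 other members were called for the departure and 3 between overlap and intermittent hypoxia, and 3 enzymes between sustained and intermittent hypoxia. The all-gene shares in that fit were 1.99%, 8.36% and 38.9%. The labels do not say that numbers pair libraries, and same-numbered libraries did not deviate together: the correlation of their deviations from the group means ran from −0.10 to 0.18 over 24 pairs, with 4 above 0.1. Of 5557 values of members not called, 5.51% changed sign under an alternative.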

Other observations

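Per kilobase of the longest coding transcript, the room air levels of the 34 members spanned a wide range. Lcat stood highest at 160.3 ± 21.4 CPM per kb (SD, n = 4), followed by Ebp at 149.5 ± 7.54, a difference within that spread. Tm7sf2 (117.6 ± 11.8), Fdps (79.1 ± 11.8), Insig1 (66.0 ± 9.23) and Sc5d (62.0 ± 9.79) came next, the last pair within their spread. The lowest enzymes were Mvd (4.34 ± 1.42) and Lss (4.17 ± 0.540), also within their spread of each other. Abca1 (2.83 ± 0.805), Srebf2 (2.22 ± 0.326) and Mylip (1.18 ± 0.393) closed the order.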
